A study of Mus musculus with 6 samples.

Results

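The actins and alpha-actinins are the 10 genes examined here, out of 49315 in the count table, each found by an exact match of its gene symbol. There are 6 actins (Acta1, Actc1, Acta2, Actg2, Actb and Actg1) and 4 alpha-actinins (Actn1, Actn2, Actn3 and Actn4). Transcripts were counted in the gastrocnemius, a calf muscle, of male mice of the inbred strain C57BL6J. The muscle had received an adeno-associated virus (AAV9) when the mice were 5 months old and was taken 5 months later. The AAV9-HSA-CAAHR group (replicates 31, 34 and 36) received a constitutively active aryl hydrocarbon receptor (AHR), a mouse AHR without its ligand binding domain. The AAV9-HSA-GFP group (replicates 42, 43 and 46) received green fluorescent protein. Both genes stood behind the human skeletal actin promoter (HSA, from ACTA1, the human counterpart of Acta1), which limits expression to muscle fibres. All 6 muscles carried a vector with that promoter, so the comparison is between vectors and not with uninjected muscle. The share of fibres that took up a vector is not given in the sources used here.

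Actin polymerizes into the thin filaments along which myosin pulls, and alpha-actinin crosslinks the ends of those filaments at the Z-disc. In adult skeletal muscle the thin filament actin is Acta1, whereas Actc1 is the cardiac form that fibres use during development and regeneration. Acta2 and Actg2 are smooth muscle actins of vessels and viscera, and Actb and Actg1 are cytoplasmic actins found in nearly every cell. Alpha-actinin 2 is present in all muscle fibres, alpha-actinin 3 in fast glycolytic fibres, and alpha-actinins 1 and 4 in non-muscle cells. Transcription of most actin genes is driven by serum response factor (SRF), which binds a sequence called the CArG box together with cofactors (MRTFs) that are held back by monomeric actin.

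The sequences before the RefSeq start are given for the 3 actin genes that were lower in AAV9-HSA-CAAHR muscles and had an entry among the RefSeq promoters. They are shown because each holds a CArG box. Of the 10 genes, 7 were matched to RefSeq (GRCm38.p6), and Actb, Actg2 and Actn3 were not. The stretches are chr8:123894776-123895025 for Acta1, chr2:114052888-114053125 for Actc1 and chr11:120348543-120348745 for Actg1, on the minus strand and written 5′ to 3′, without bases that GENCODE places in an exon. Capitals mark CArG boxes, CArG-like matches with 1 inner base other than those of the full box, and the TATA motif.
Acta1: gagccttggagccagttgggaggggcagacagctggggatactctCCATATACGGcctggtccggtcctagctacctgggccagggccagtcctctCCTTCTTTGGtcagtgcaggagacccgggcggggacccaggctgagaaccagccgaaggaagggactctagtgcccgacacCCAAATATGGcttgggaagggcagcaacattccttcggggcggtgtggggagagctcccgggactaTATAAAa
Actc1: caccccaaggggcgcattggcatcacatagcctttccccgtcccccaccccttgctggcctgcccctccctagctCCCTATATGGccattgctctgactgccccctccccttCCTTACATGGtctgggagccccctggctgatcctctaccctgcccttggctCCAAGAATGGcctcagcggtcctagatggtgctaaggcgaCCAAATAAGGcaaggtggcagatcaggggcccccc
Actg1: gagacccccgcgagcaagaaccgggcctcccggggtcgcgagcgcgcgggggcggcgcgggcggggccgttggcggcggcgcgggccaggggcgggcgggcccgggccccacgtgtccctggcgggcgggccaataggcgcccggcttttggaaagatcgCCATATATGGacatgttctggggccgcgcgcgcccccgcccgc

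In the 250 bases before the RefSeq start, a full CArG box was found once each in Acta1 (bases -73 to -64), Actc1 (-47 to -38) and Actg1 (-90 to -81), and in none of Acta2, Actn1, Actn2 and Actn4. Of 32851 RefSeq windows of that length, 1.47% held one. CArG-like matches, a search added after the sequences were seen, numbered 2 in Acta1, 3 in Actc1 and 2 in Acta2, and 7.24% of windows held at least 1. The core of the AHR response element, GCGTG on either strand, was found once in Actn1 and once in Actn4 and in none of the 4 actins with an entry, against 28.2% of windows. TATAAA, sought on the coding strand, occurred once, in Acta1 (7.59% of windows), and CANNTG occurred in 6 of the 7 genes (66.2% of windows). A match of letters is no evidence that a factor binds there. The starts differ between annotations, with that of Acta1 24 bases farther upstream in RefSeq than in GENCODE. That of Actc1 is farther downstream in RefSeq (114052875) than in GENCODE (114053548), so its printed stretch lies within the GENCODE gene. For Acta2, 217 of the 250 bases of the window lie in an exon by GENCODE.

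**Figure D1:**
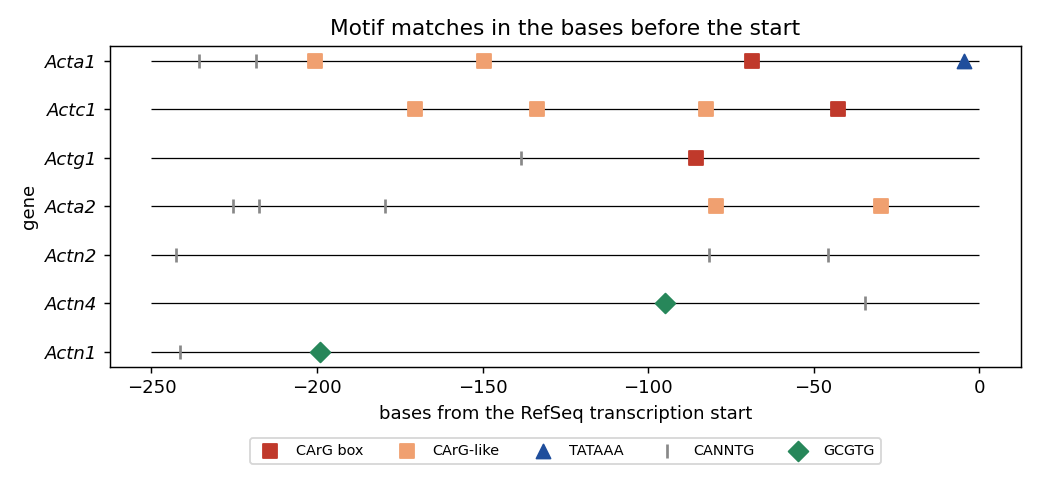
Motif matches in the 250 bases before the RefSeq start of 7 genes, with the distance from the start in bases on the x axis and 1 line per gene. Each of Acta1, Actc1 and Actg1 holds 1 full CArG box, while Acta2 holds 2 CArG-like matches and the 3 alpha-actinins hold neither.

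The libraries held between 43432994 and 58825752 counts. Ahr, the gene delivered, was at 16.7 ± 6.44 CPM (counts scaled to library size with TMM factors; mean ± SD, n = 3) with AAV9-HSA-CAAHR and 2.29 ± 0.370 CPM with AAV9-HSA-GFP. Its target Cyp1a1 was at 1476 ± 227 and 6.79 ± 0.943 CPM, so both followed the labels. The fast myosin Myh4, which predominates in mouse gastrocnemius, was at 71037 ± 14643 and 88135 ± 5061 CPM. The slow myosin Myh7 was at 614 ± 398 and 56.6 ± 21.3 CPM, and AAV9-HSA-CAAHR replicate 34 stood apart from its group in such fibre markers. Of 15847 genes tested, 1205 (7.60%) had an adjusted p under 0.05, and 724 (4.57%) were lower with AAV9-HSA-CAAHR. The share of lower genes among all calls was 60.1%, against 73.4% with upper quartile scaling and 40.7% with library size only. Nothing in the labels says that the muscles of a group came from separate mice, so p-values measure the spread between these libraries.

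Of the 6 actins, 5 were lower in AAV9-HSA-CAAHR muscles by the edgeR test (Acta1, Actc1, Actb, Actg1 and Actg2), against 4.57% of all genes tested. For these 5 genes every AAV9-HSA-CAAHR library was below every AAV9-HSA-GFP library, as for 14.9% of all genes. Actc1 and Actg2 were over 2-fold lower (2.51% of all genes, and 3.48% in either direction), 0 actins were higher (3.04%), and Acta2 did not pass. The groups of 29.9% of all genes did not overlap in one direction or the other. Of the 4 alpha-actinins 0 passed by edgeR (7.60% of all genes), 0 by DESeq2 (12.1%), and 0 at an unadjusted p under 0.05 (23.9%). With 4 genes these counts are near the shares of all genes. The median log2 fold change was -0.84 over the actins and 0.05 over the alpha-actinins, beside 0.0086 over all genes tested. Actg2 entered the test through the AAV9-HSA-GFP libraries, where it was higher, and without it 4 of the other 5 actins were lower. The fall of Acta1 was known when the genes were chosen, so its call is no independent support. With Acta1 and Actg2 both set aside, Actc1, Actb and Actg1 were lower and Acta2 did not pass. The direction of each of the 5 held under each of the 15 alternative settings in which the gene was tested.

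**Figure D2:**
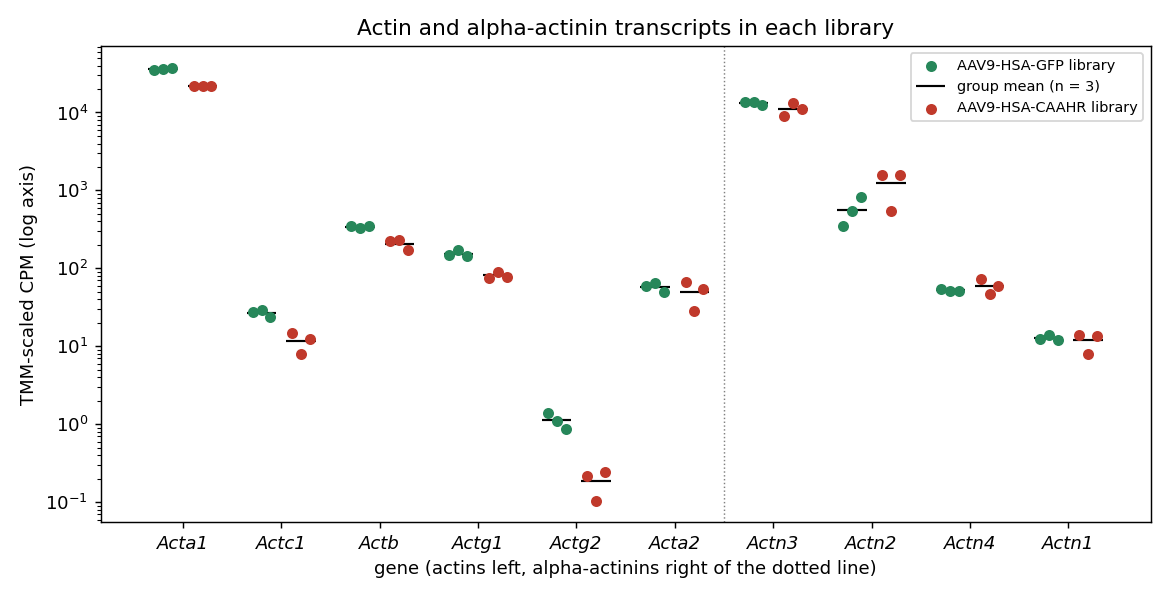
TMM-scaled CPM on a log axis for the 10 genes in each library, with points for libraries and lines for group means (n = 3). Acta1, Actc1, Actb, Actg1 and Actg2 have all 3 AAV9-HSA-CAAHR libraries below all 3 AAV9-HSA-GFP libraries, and the other 5 genes overlap.

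Acta1, the thin filament actin of adult muscle, is at chromosome 8, 123891769 to 123894751 (GRCm38, minus strand, ENSMUSG00000031972). Per kilobase of exon it was the transcript with rank 2 among 49056 genes. It was at 21733, 22004 and 21660 CPM in AAV9-HSA-CAAHR replicates 31, 34 and 36, and at 35143, 36567 and 37674 CPM in AAV9-HSA-GFP replicates 42, 43 and 46. The AAV9-HSA-CAAHR libraries differed little from each other, and the highest of them was far below the lowest control. The log2 fold change was -0.74 ± 0.13 (SE), or 0.598 of the control level, with an adjusted p of 0.00895. The call was lost without AAV9-HSA-CAAHR replicate 36 (-0.74, adjusted p = 0.0625) or without AAV9-HSA-GFP replicate 46 (-0.72, adjusted p = 0.0529), and with a slow fibre covariate (-0.76, adjusted p = 0.0770). The parts of fibre number and of RNA per fibre in this value were not tested.

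Acta1 was also compared with other transcripts of the same library, which needs no scaling between libraries. It made up 2.29%, 2.19% and 2.24% of counts in AAV9-HSA-CAAHR replicates 31, 34 and 36, against 3.46%, 3.50% and 3.66% in AAV9-HSA-GFP replicates 42, 43 and 46. The difference was -1.30 percentage points (exact permutation test, two-sided, p = 0.1, the smallest that 3 against 3 allows). Beside the summed fast and slow fibre markers, which include the main myosin heavy chains and troponins, the log2 ratio of Acta1 was -2.66, -3.07 and -2.87 with AAV9-HSA-CAAHR and -2.47, -2.40 and -2.33 with AAV9-HSA-GFP. Each AAV9-HSA-CAAHR library was thus lower in Acta1 relative to this sum than each control. The difference was -0.47 (exact permutation test, p = 0.1), and -0.46 with the fast markers alone. Across the 5 such within-library comparisons made here, both had an adjusted p of 0.25. The fall of Acta1 was known beforehand, so both describe it and are no independent support. The most abundant genes in the sum were Myh4 and the calcium pump gene Atp2a1, with log2 fold changes of -0.31 ± 0.18 and -0.0096 ± 0.16. The troponin Tnnt3, at -0.69 ± 0.15, was lower by about as much as Acta1, so the ratio does not hold for every contractile transcript.

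The 5 genes whose profile over the 6 libraries was closest to that of Acta1, among those with a mean of at least 100 CPM, were Vldlr, Prr33, Ybx3, Art3 and Srf. Closeness was the root mean square difference of centred log2 CPM, which ran from 0.064 for Vldlr to 0.097 for Srf. All 5 were lower with AAV9-HSA-CAAHR, with log2 fold changes of -0.74 ± 0.11 for Vldlr (the very-low-density lipoprotein receptor), -0.70 ± 0.10 for Prr33, -0.70 ± 0.12 for Ybx3 (a Y-box RNA binding protein), -0.70 ± 0.10 for Art3 and -0.64 ± 0.10 for Srf. Their closeness to Acta1 fixed that direction. Among the 10 genes examined here the closest was Actb (0.130, rank 11 of 1158), followed by Actg1 (0.152, rank 21), Actn3 (0.293, rank 183) and Actn2 (1.08, rank 1124). The other 5 genes were under 100 CPM and were not ranked.

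Actc1, the cardiac actin, is at chromosome 2, 114047282 to 114053548. It was at 14.7, 8.02 and 12.5 CPM in AAV9-HSA-CAAHR replicates 31, 34 and 36, and at 27.4, 29.0 and 23.5 CPM in AAV9-HSA-GFP replicates 42, 43 and 46. Replicate 34 was the lowest library, and the highest AAV9-HSA-CAAHR value was below the lowest control. The log2 fold change was -1.18 ± 0.21 (adjusted p = 0.0136), and the call was lost without AAV9-HSA-CAAHR replicate 36 (adjusted p = 0.0515). Per kilobase of exon, Actc1 made up 0.0507% ± 0.0150 of actin transcripts with AAV9-HSA-CAAHR and 0.0688% ± 0.00884 with AAV9-HSA-GFP. Its log2 ratio to Acta1 differed by -0.48 between groups, which overlapped (exact permutation test, p = 0.2, adjusted over 5 comparisons p = 0.25). The smallest p that 3 against 3 allows is 0.1. Of 5 tested markers of regenerating fibres 0 were called by edgeR, and 4 were fitted higher (median 0.30). Myog, a myogenic transcription factor named after its values were seen, had an unadjusted p under 0.05, was called by DESeq2 and did not overlap between groups, at 4.14 ± 1.21 against 2.04 ± 0.539 CPM (1.02 ± 0.27, edgeR adjusted p = 0.0523). The summed levels of the list were 69.6 to 89.1 against 70.7 to 82.9 CPM, with the embryonic myosin Myh3 at 6.87 ± 3.20 against 4.33 ± 0.876 CPM, the perinatal myosin Myh8 at 39.9 ± 11.6 against 47.3 ± 1.15 CPM and Ncam1 at 12.9 ± 1.72 against 10.5 ± 2.62 CPM.

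The cytoplasmic actins Actb and Actg1 were lower by about as much as Acta1. Actb (chromosome 5, 142903115 to 142906754) was at 223, 229 and 173 CPM in AAV9-HSA-CAAHR replicates 31, 34 and 36, and at 346, 330.2 and 351 CPM in AAV9-HSA-GFP replicates 42, 43 and 46. Its log2 fold change was -0.72 ± 0.12 (adjusted p = 0.00926). Actg1 (chromosome 11, 120345690 to 120348542) was at 76.4, 90.4 and 76.9 CPM with AAV9-HSA-CAAHR and at 149, 173 and 143 CPM with AAV9-HSA-GFP, in the same order of replicates. Its log2 fold change was -0.93 ± 0.11 (adjusted p = 0.00179). Neither gene's groups overlapped, and leaving out any 1 of the 6 libraries did not end the call of either. The log2 ratio of Actg1 to Actb differed by -0.20 between groups, which overlapped (exact permutation test, p = 0.4).

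Cells other than fibres also carry cytoplasmic actins, so the levels of immune markers are given beside them. Of 10 immune cell genes, 4 were lower with AAV9-HSA-CAAHR (Ptprc, Cd79a, Coro1a and Cd52, named after their values were seen), against 4.57% of all genes tested. In this list 0 were higher, and the median log2 fold change was -1.49. By qPCR the paper found selected immune genes no lower in AAV-CAAHR mice than in mice given no AAV. It ascribes the sequencing difference to a local immune response to AAV-GFP. Ptprc lost its call in 4 of the 6 fits without 1 library (adjusted p from 0.0745 to 0.129), Cd79a in 5 (0.0675 to 0.137), Coro1a in 2 (0.0558 and 0.0621) and Cd52 in 1 (0.0583). Limma-voom did not call Ptprc (adjusted p = 0.0687) or Cd79a (0.114). The slow fibre covariate ended all 4 calls (adjusted p from 0.0894 to 0.309). Without AAV9-HSA-GFP replicate 43 the log2 fold change of Cd79a moved from -2.17 to -1.38, that of Ptprc from -2.33 to -1.66 and that of Cd52 from -3.17 to -2.52. The leukocyte marker Ptprc was at 1.04 ± 0.0838 against 5.25 ± 3.53 CPM, and the macrophage genes Cd68 and Lyz2, which were not called, were at 0.861 ± 0.270 against 1.83 ± 0.558 and at 12.6 ± 3.56 against 32.3 ± 13.5 CPM. Their summed level was 17.6 to 28.0 CPM with AAV9-HSA-CAAHR and 39.2 to 93.4 CPM with AAV9-HSA-GFP. None of the 10 genes was at 0 in any library. Among controls the sum was highest in replicate 43 (93.4 CPM), where Actb was lowest and Actg1 highest. Of 7 fibroblast markers 0 were called by edgeR (1 at an unadjusted p under 0.05, 1 by DESeq2, median -0.17), with sums of 366 to 729.9 against 546 to 689 CPM. Collagens Col1a1, Col1a2 and Col3a1 had log2 fold changes of 0.10 ± 0.30, 0.04 ± 0.38 and -0.20 ± 0.19. Of 6 endothelial markers 0 were called by edgeR (1 at an unadjusted p under 0.05, 0 by DESeq2, median 0.10), with sums of 163 to 238 against 170.02 to 221 CPM. Pecam1, Cdh5 and Kdr had log2 fold changes of 0.10 ± 0.14, 0.10 ± 0.14 and 0.21 ± 0.23. The part of any of these cells in the fall of Actb and Actg1 was not tested.

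The smooth muscle actins gave different values. Acta2 (chromosome 19, 34241090 to 34255590), the vascular form, was at 67.3, 28.3 and 54.0 CPM in AAV9-HSA-CAAHR replicates 31, 34 and 36, and at 58.998, 64.7 and 50.3 CPM in AAV9-HSA-GFP replicates 42, 43 and 46. Replicate 34 was below and replicate 31 above every control, and the log2 fold change of -0.22 ± 0.30 was smaller than its error. Its sign turned without AAV9-HSA-CAAHR replicate 34 (0.06). The summed smooth muscle and pericyte markers stood at 549, 356 and 436 CPM in the same AAV9-HSA-CAAHR libraries and at 455 to 464 CPM in the controls, so replicate 34 was lowest and replicate 31 highest in these too.

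Actg2 (chromosome 6, 83512905 to 83536265), the enteric form, was the least abundant of the 10 genes. Its raw counts were 11, 6 and 15 in AAV9-HSA-CAAHR replicates 31, 34 and 36 and 68, 46 and 46 in AAV9-HSA-GFP replicates 42, 43 and 46. All of the former were below all of the latter, with a log2 fold change of -2.56 ± 0.39 (adjusted p = 0.00486), and leaving out any 1 of the 6 libraries did not end the call. It entered the test through the AAV9-HSA-GFP libraries, where it was higher, so its call is no independent support. The filter that required at least 10 counts in every library removed it, while the other 9 genes passed. Of 10 smooth muscle and pericyte markers, 1 was lower (Smtn, -0.61 ± 0.10) and 1 higher (Lmod1, 0.49 ± 0.11), both named after their values were seen, and the median was -0.12. The smooth muscle myosin Myh11 was at 42.98 ± 18.3 against 45.96 ± 3.83 CPM, Tagln at 10.1 ± 2.96 against 14.4 ± 1.78 CPM and Cnn1 at 0.967 ± 0.564 against 1.92 ± 0.610 CPM, and none of these was called.

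**Figure D3:**
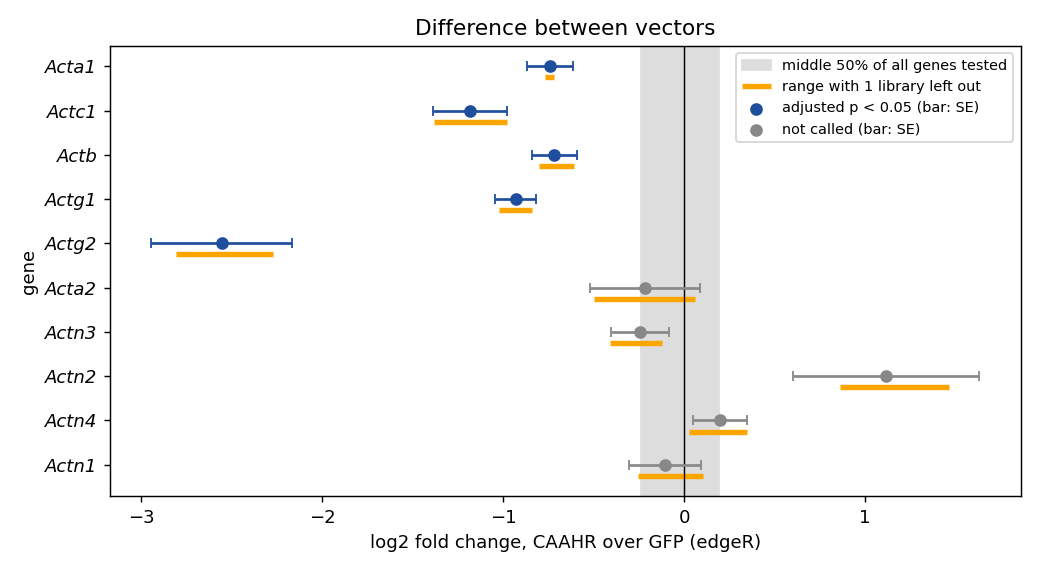
Log2 fold change of AAV9-HSA-CAAHR over AAV9-HSA-GFP for each gene, with SE bars, the range when 1 library is left out (orange) and the middle 50% of all genes tested (grey). The 5 called actins lie left of the grey band, from -0.72 for Actb to -2.56 for Actg2, and Actn2 lies right of it with a wide error.

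Of the actin transcripts per kilobase of exon, Acta1 made up 99.0% ± 0.0899 with AAV9-HSA-CAAHR and 99.0% ± 0.0522 with AAV9-HSA-GFP. The summed level of the 6 actins was 14301, 14463 and 14228 CPM per kilobase in AAV9-HSA-CAAHR replicates 31, 34 and 36, and 23109, 24043 and 24750 CPM per kilobase in the controls. At such a share the total is in effect the level of Acta1. By level per kilobase in controls the order was Acta1 (23738 ± 826), Actb (128 ± 4.10), Actg1 (58.3 ± 6.09), Acta2 (26.4 ± 3.31), Actc1 (16.5 ± 1.75) and Actg2 (0.724 ± 0.174), and no neighbours in it overlapped. In AAV9-HSA-CAAHR muscles the order was the same, and Acta2 (22.7 ± 9.03) overlapped its neighbour Actg1 (30.6 ± 2.997).

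How far reads of one actin can be told from another depends on shared sequence, since the authors counted unique reads. No stretch of 150 bases in the longest coding transcript of Acta1, Actc1, Acta2, Actg2 or Actb recurs in another annotated transcript. For Actg1, 43.5% of such stretches recur, chiefly in the pseudogene Gm12715, which itself held 577 counts over the 6 libraries against 35662 for Actg1. Counting unique reads leaves reads within such stretches out in every library alike. At 50 bases, 2.22% of Acta1, 14.2% of Actb, 56.7% of Actg1 and 0% of Actc1 and Actg2 stretches recur. Actn1 shares 363 exon bases (6.56%) with Gm47766 and 88 with Gm47767, both antisense genes with no entry among the deposited counts. Reads from the 2 strands cannot be told apart if counting used no strand. Actn4 shares 316 exon bases with Capn12 on the opposite strand, which held 114 counts in all against 17484.

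Among the alpha-actinins, Actn3 and Actn2 were the abundant forms. Actn3 (chromosome 19, 4861216 to 4877909) was at 9097, 13420 and 10923 CPM in AAV9-HSA-CAAHR replicates 31, 34 and 36, and at 13624, 13433 and 12579 CPM in AAV9-HSA-GFP replicates 42, 43 and 46. The log2 fold change was -0.25 ± 0.16 (adjusted p = 0.397). Actn2 (chromosome 13, 12269426 to 12340760) was at 1564, 548 and 1575 CPM with AAV9-HSA-CAAHR and at 347, 543 and 812 CPM with AAV9-HSA-GFP. Replicates 31 and 36 were above every control, and replicate 34 lay among them. Its log2 fold change of 1.12 ± 0.51 was over 2-fold but did not pass (adjusted p = 0.268).

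The order of Actn2 and Actn3 tracked that of the slow fibre markers within the controls, but not over all 6 libraries. The part of fibre type in their values was not tested. By the study's methods the red portions of the gastrocnemii were dissected for fibre bundles and the rest went to mitochondrial isolation or was frozen, and the portion taken for RNA is not named. The summed slow fibre markers stood at 2818, 661 and 2546 CPM in AAV9-HSA-CAAHR replicates 31, 34 and 36, and at 235, 343 and 474 CPM in AAV9-HSA-GFP replicates 42, 43 and 46. Within the controls Actn2 rose and Actn3 fell in the order of these sums, and within the AAV9-HSA-CAAHR group replicate 34 had the lowest Actn2, the highest Actn3 and the lowest slow fibre sum. All 9 slow fibre genes were fitted higher (median log2 fold change 2.36) and 0 were called by edgeR, with 8 at an unadjusted p under 0.05 (23.9% of all genes tested). DESeq2 called 8, and edgeR called 7 without AAV9-HSA-CAAHR replicate 34. Of these, Myl2 was at 159 ± 95.0 against 30.8 ± 20.6 CPM and Myl3 at 233 ± 135 against 66.5 ± 37.5 CPM. Of 9 fast fibre genes 2 were lower (Tnnt3 and Tnni2, named after their values were seen), against 4.57% of all genes tested, and the median was -0.45. Leaving out any 1 library other than AAV9-HSA-CAAHR replicate 34 ended both calls, with adjusted p from 0.0665 to 0.130 for Tnnt3 and from 0.0741 to 0.146 for Tnni2. With the covariate Tnnt3 was at -0.34 and Tnni2 at -0.44. Myh1 and Myh2, which were not called, had log2 fold changes of 0.997 ± 0.65 and 1.38 ± 0.81. The slow fibre covariate was the mean log2 CPM of the 9 slow fibre genes in each library, and not the sum above. Since all 9 were fitted higher with AAV9-HSA-CAAHR, the covariate is partly confounded with the vector. Values under it do not separate fibre type from vector. With the covariate, Actn2 turned to -0.88 (adjusted p = 0.0534) and Actn3 to 0.20. The 5 lower actins kept their direction, and only Actc1 kept its call (-1.87, adjusted p = 0.0155). Actg2 was then at -3.002 ± 0.85 (adjusted p = 0.0947), Actg1 at -0.68 ± 0.18 (0.0786), Actb at -0.54 ± 0.20 (0.200) and Acta1 at -0.76 ± 0.20 (0.0770), each with a larger SE than without the covariate. Acta2 moved from -0.22 to -1.29 ± 0.41 (adjusted p = 0.178) and Actn1 from -0.11 to -0.90 ± 0.26 (adjusted p = 0.106).

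**Figure D4:**
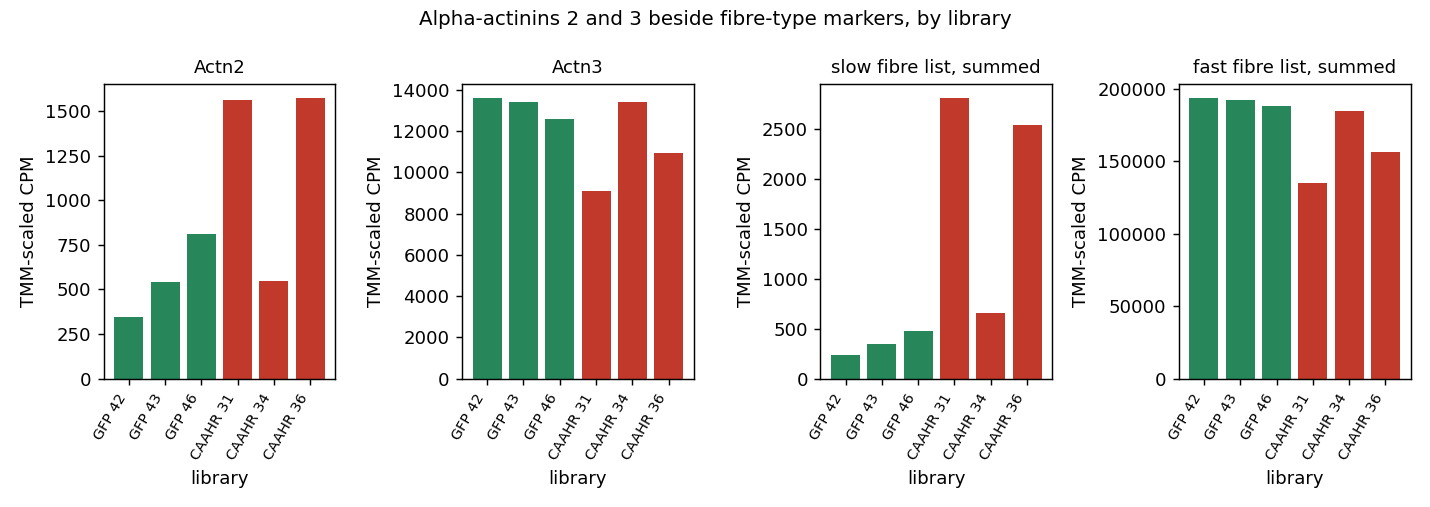
TMM-scaled CPM of Actn2, Actn3 and the summed slow and fast fibre markers in each library (bars, axes from 0). Actn2 has the order of the slow fibre sum in the controls, and in all 4 panels AAV9-HSA-CAAHR replicate 34 lies closer to the controls than replicates 31 and 36 do.

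The log2 ratio of Actn3 to Actn2 was 2.54, 4.61 and 2.79 with AAV9-HSA-CAAHR and 5.30, 4.63 and 3.95 with AAV9-HSA-GFP. The difference was -1.31, and the groups overlapped (exact permutation test, p = 0.2, adjusted p = 0.25). The smallest p that 3 against 3 allows is 0.1. Per kilobase of exon, Actn2 made up 11.6%, 3.02% and 9.90% of alpha-actinin transcripts in AAV9-HSA-CAAHR replicates 31, 34 and 36, and 1.90%, 2.99% and 4.69% in AAV9-HSA-GFP replicates 42, 43 and 46. Their total was 4178 ± 609 against 4715 ± 134 CPM per kilobase. Per kilobase of exon the order in controls was Actn3 (4554 ± 192), Actn2 (149 ± 61.6), Actn4 (8.52 ± 0.404) and Actn1 (2.31 ± 0.168), and the order with AAV9-HSA-CAAHR was the same.

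Neither non-muscle form passed the test. Actn4 (chromosome 7, 28893248 to 28962340) was at 73.3, 46.5 and 59.99 CPM with AAV9-HSA-CAAHR and at 55.0, 50.6 and 50.9 CPM with AAV9-HSA-GFP, a log2 fold change of 0.20 ± 0.15. Actn1 (chromosome 12, 80167547 to 80260371) was at 14.2, 7.98 and 13.5 CPM and at 12.5, 13.8 and 12.1 CPM, a log2 fold change of -0.11 ± 0.20. In both, replicate 34 was below every control and replicate 31 above every control. The sign of Actn1 turned without AAV9-HSA-CAAHR replicate 34 (0.11).

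Genes that act on actin were read from 5 lists. For comparison with the counts in each list, 7.60% of all genes tested were called by edgeR and 23.9% had an unadjusted p under 0.05. The list of SRF, its cofactors and other regulators of the skeletal actin promoter had 23 tested genes, of which 3 were higher and 1 lower (median log2 fold change 0.12) and 8 had an unadjusted p under 0.05. Srf was at 76.0, 90.0 and 79.6 CPM in AAV9-HSA-CAAHR replicates 31, 34 and 36 and at 128, 119 and 136 CPM in AAV9-HSA-GFP replicates 42, 43 and 46. The groups did not overlap, with a log2 fold change of -0.64 ± 0.10 and an adjusted p of 0.00648. Abra, whose product (STARS) binds actin and promotes SRF activity through MRTFs, was at 398, 343 and 345 CPM against 160, 218 and 145 CPM, a log2 fold change of 1.06 ± 0.16 (adjusted p = 0.00431). Tead4, a factor that binds muscle promoters next to SRF sites, was higher (0.77 ± 0.11, adjusted p = 0.00437). So was Fhl2, a LIM-domain cofactor (2.504 ± 0.55, adjusted p = 0.0482), which did not pass when genes of low counts were kept (adjusted p = 0.150), with at least 10 counts in every library (0.0525) or when any 1 library other than AAV9-HSA-CAAHR replicate 34 was left out (adjusted p up to 0.176). With the slow fibre covariate the change in Fhl2 was 0.26 (adjusted p = 0.736).

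Setd3, the methyltransferase that modifies a histidine of actin, was the 1 gene called of 18 in the list for actin folding and processing. It was at 209.8, 254.5 and 235 CPM with AAV9-HSA-CAAHR and at 151, 149 and 155 CPM with AAV9-HSA-GFP, a log2 fold change of 0.62 ± 0.10 (adjusted p = 0.00773), and the list's median was -0.0056, with 2 genes at an unadjusted p under 0.05. Its call held under each of the 15 alternatives. Srf, Abra, Tead4 and Xirp1 lost theirs under the slow fibre covariate alone. There Srf was at -0.48 (adjusted p = 0.178), Abra at 0.98 (0.115), Tead4 at 0.81 (0.0813) and Xirp1 at 1.10 (0.0567) on the log2 scale.

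Of 29 Z-disc genes, 2 were higher and 1 lower (median 0.06), and 13 had an unadjusted p under 0.05, against 23.9% of all genes. Xirp1, which encodes an actin-binding repeat protein of fibre junctions and damaged fibres, was at 683, 441 and 453 CPM against 172, 195 and 182 CPM. Its log2 fold change was 1.52 ± 0.17 (adjusted p = 0.00137). Myoz3, which binds alpha-actinin, was higher (0.87 ± 0.20, adjusted p = 0.0371), a call lost without AAV9-HSA-CAAHR replicate 36 (adjusted p = 0.0912), AAV9-HSA-GFP replicate 43 (0.120) or 46 (0.124). Smtnl2 was lower (-0.61 ± 0.13, adjusted p = 0.0255) and lost its call when any 1 library other than AAV9-HSA-CAAHR replicate 34 was left out (adjusted p from 0.0625 to 0.106). With the slow fibre covariate it was at -0.22 (adjusted p = 0.542).

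Of 21 genes for thin filament length and turnover, 2 were higher and 3 lower (median -0.08), and 9 had an unadjusted p under 0.05. Cap2, which recycles actin monomers, had a log2 fold change of 0.63 ± 0.12 (adjusted p = 0.0161) and lost its call without AAV9-HSA-CAAHR replicate 36 (0.0586), AAV9-HSA-GFP replicate 43 (0.0596) or 46 (0.0665). Lmod1, a leiomodin that nucleates filaments in smooth muscle, was at 0.49 ± 0.11 (adjusted p = 0.0310), with adjusted p from 0.0667 to 0.127 in the 4 fits in which leaving out AAV9-HSA-CAAHR replicate 31 or 36 or AAV9-HSA-GFP replicate 42 or 43 ended the call. The monomer-binding thymosins were lower, Tmsb4x at -0.44 ± 0.10 (adjusted p = 0.0298) and Tmsb10 at -0.59 ± 0.13 (adjusted p = 0.0275). Tmsb4x lost its call without AAV9-HSA-CAAHR replicate 36, AAV9-HSA-GFP replicate 43 or 46 (adjusted p from 0.0894 to 0.115), and Tmsb10 without these or AAV9-HSA-GFP replicate 42 (0.0516 to 0.0995). The severing factor Cfl1 was also lower (-0.34 ± 0.09, adjusted p = 0.0463), and leaving out any 1 of the 6 libraries ended its call (0.0669 to 0.151). Scaling by library size alone also ended the calls of Tmsb4x (0.0606) and Cfl1 (0.107), and upper quartile scaling that of Lmod1 (0.0530), as adjusted p. The slow fibre covariate ended those of Lmod1 (0.39), Tmsb4x (-0.61), Tmsb10 (-0.45) and Cfl1 (-0.52), with adjusted p from 0.0890 to 0.373. In the list for nucleation and branching 0 of 20 genes passed by edgeR, with 4 at an unadjusted p under 0.05, 1 called higher and 2 lower by DESeq2, and a median of -0.0026. Its most abundant genes, the formin Diaph1 (182 ± 15.5 against 159 ± 11.01 CPM), the Arp2/3 complex subunit Arpc5l (95.0 ± 4.08 against 95.6 ± 4.30 CPM) and the formin Fhod3 (75.9 ± 3.31 against 70.7 ± 4.37 CPM), were not called.

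**Figure D5:**
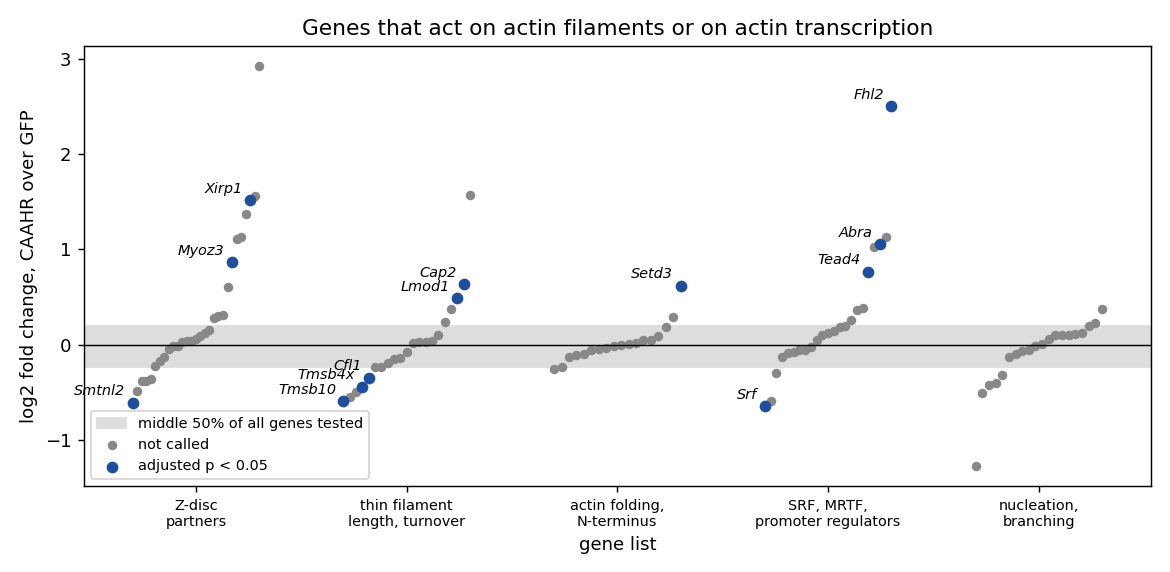
Log2 fold change of each tested gene in the 5 lists, ordered within a list, with called genes in blue and named and the middle 50% of all genes tested in grey. Srf lies at -0.64 and Abra at 1.06 in the same list.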

How the data were processed

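RNA was taken from 6 gastrocnemius muscles (3 per vector) and sequenced as paired reads of 150 bases after poly(A) selection. The authors trimmed reads with Trimmomatic 0.36, aligned them to GRCm38 with STAR 2.5.2b (versions per the submitters' processing notes) and deposited counts of unique reads within exons per gene, unnormalized. Whether counting used strand is not given in the sources used here. The deposited counts held 43432994 to 58825752 per library, and 174 rows without a symbol (0.0154% of counts) stayed in these totals.

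Here, counts were scaled by TMM, filtered with filterByExpr and tested in edgeR 4.0.16 (quasi-likelihood F test, robust), with Benjamini-Hochberg adjustment over 15847 genes and a threshold of 0.05. The study used the DESeq2 Wald test, which was run as an alternative (1.42.0), as were limma-voom 3.58.1 with sample weights, other scalings and filters, a slow fibre covariate and fits without 1 library. Exact permutation tests were used for the 5 within-library comparisons, and their p-values were adjusted over these 5. Levels per kilobase used exon lengths of GENCODE M21 (GRCm38), which holds 49056 of 49315 gene IDs. The fit was tested on simulated data.

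The members and gene lists were chosen with earlier results of these data known. All 10 members were named. From each pathway list the rule named up to 4 called genes per direction, or the 3 most abundant where 0 were called, and from each marker list the first 3 genes. The SRF list had 26 symbols, 2 of them second names of genes already listed. Replicates of a group differed by more than counting noise.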

Additional observations from a re-analysis of the deposited data

How the results depend on the processing

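No paired analysis was possible because no AAV9-HSA-CAAHR library has the replicate number of an AAV9-HSA-GFP library. Without a filter on low counts edgeR called 2470 genes, 1008 of them over 2-fold, and DESeq2 called 1919 genes in all, against 1205 and 551 in the edgeR fit reported. With a slow fibre covariate 436 genes were called, 345 over 2-fold, and 1 of the 10 members (Actc1). Leaving out 1 library gave 530 to 1727 genes, 335 to 740 over 2-fold, and 3 to 5 members, with the fewest of both genes and members without AAV9-HSA-CAAHR replicate 36 and the most genes without replicate 34.

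The log2 fold change of Acta1 was -0.76 with the covariate and -0.77 to -0.72 with 1 library left out. The covariate, which is partly confounded with the vector, turned Actn2 to -0.88, Actn3 to 0.20 and Actn4 to -0.28. It moved Acta2 to -1.29 and Actn1 to -0.90. With 1 library left out, Acta2 ran from -0.50 to 0.058 and Actn1 from -0.25 to 0.11. Both highest values came without AAV9-HSA-CAAHR replicate 34. The cause was not tested. Of 149 member values under alternatives, 137 kept direction and side of the threshold, 7 lost their call and 5 changed sign. The requirement of 10 counts in every library removed Actg2 from the test, so it gave no value there. Depth limits Actg2 most, at 6 to 68 counts per library.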
